A study of Mus musculus with 2 samples.

Results

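The genes described here act in necroptosis, pyroptosis and death receptor signalling: the death receptor Fas, the death ligand Tnfsf10 (TRAIL), the initiator caspase gene Casp8, the necroptosis genes Ripk1, Ripk3 and Mlkl, and the inflammasome and pyroptosis genes Pycard (ASC), Casp1, Casp4 and Gsdmd. The 10 genes were chosen by name, and every probe set that the platform annotation assigns to them was taken. This gave 13 probe sets for 9 of the 10 genes, out of 18193 genes with a probe set. Ripk1 matched no probe set in the annotation used and was not analysed here. Of the 9 genes, 7 had 1 probe set, and Tnfsf10 and Pycard had 3 each.

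The cells came from mouse eyes and were primary retinal pigment epithelium (RPE), a pigmented monolayer between the photoreceptors and the choroid. They had been grown for 14 days in medium with 20% fetal bovine serum and were described as 95% cytokeratin-positive. One group was untreated RPE, and the other was RPE given interferon gamma (IFNg) at 100 U/ml for 24 h; RNA from both was taken after overnight serum-free culture. Strain, age and genotype are not given in the labels. Each group had 1 array, so no replicate spread and no p-value exist and precision is limited by this small number of arrays: "higher" and "lower" describe these 2 arrays.

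Death receptors such as Fas gather adaptors and caspase-8 at the membrane. Active caspase-8 starts apoptosis and also cleaves the kinases RIPK1 and RIPK3. When caspase-8 is blocked, RIPK3 phosphorylates MLKL, which opens the plasma membrane (necroptosis). In pyroptosis, ASC links inflammasome sensors to caspase-1, while caspase-4 (also called caspase-11 in the mouse) responds to cytosolic lipopolysaccharide, and both caspases cut gasdermin D, whose fragment forms membrane pores. All of these steps act on proteins, and the arrays measured their transcripts.

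With IFNg, 6 of the 9 measured genes had a signal at least 2-fold above the untreated one, and none had one 2-fold below it. The 6 were Mlkl, Casp4, Fas, Pycard, Tnfsf10 and Gsdmd. Casp8, Casp1 and Ripk3 lay within 2-fold. Of all 12743 genes measured above a floor by 1 array or more, 8.82% were at least 2-fold higher and 4.48% at least 2-fold lower. The median log2 ratio (IFNg over untreated) of the 9 genes was 1.52, with a range from -0.42 to 3.51, and that of all 12743 genes was -0.12. The median of 1.52 is the Tnfsf10 value, a bound, and it was 2.31 when the floor was the 25th percentile. The floor is the pooled median signal of 20.4: signals under it were set to it, and a fold against an array at the floor is a lower bound, written "at least". A gene took the value of its brightest probe set, the one with the highest mean of the floored log2 signals over both arrays. As a technical scale, the SD of the log2 ratio among probe sets within a gene was 0.44, over 4419 genes.

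**Figure D1:**
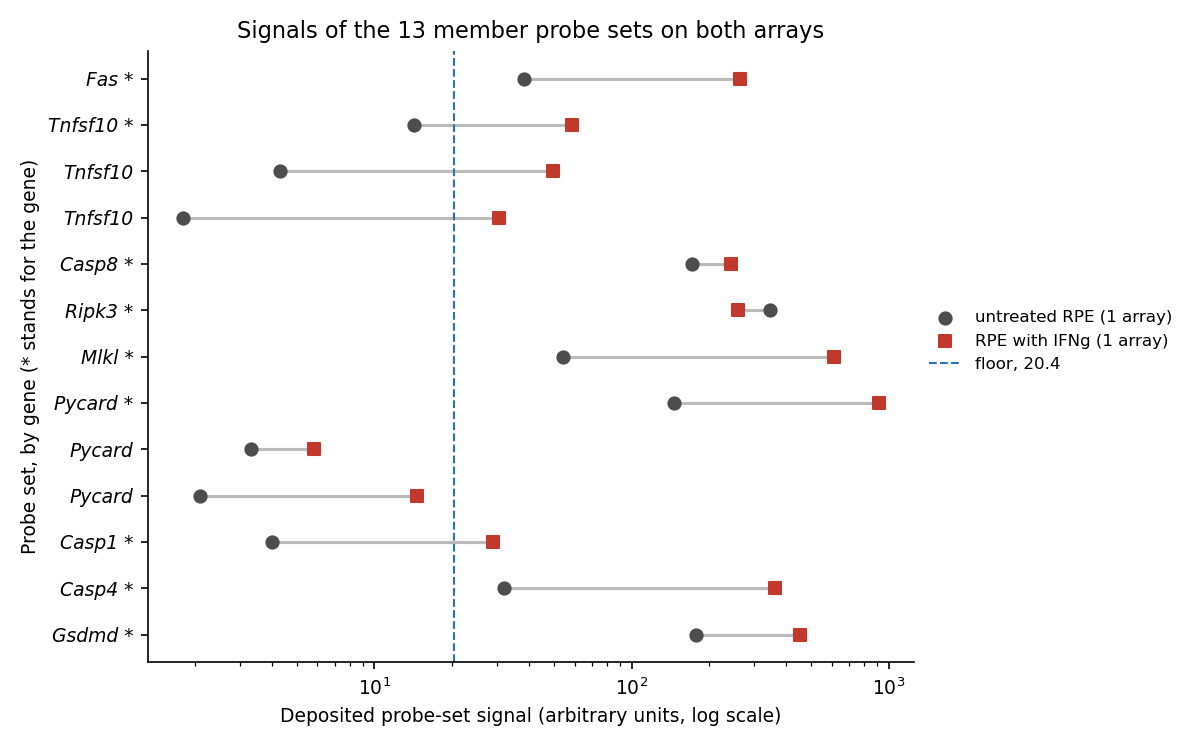
Deposited signals (log axis, arbitrary units) of the 13 probe sets on the untreated array (circles) and the IFNg array (squares), 1 array each, with no error bars because there are no replicates. The dashed line is the floor of 20.4; Ripk3 alone has its square to the left of its circle, and 2 Pycard probe sets lie under the floor on both arrays.

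Among the receptor and ligand genes, Fas, whose product receives the Fas ligand signal, had signals of 38.0 untreated and 263.4 with IFNg (probe set 1460251_at). This was 6.93-fold higher (log2 ratio 2.79). The untreated signal was dim, and when the floor was set to the 75th percentile of the pooled signals the fold became a bound of at least 3.04. Tnfsf10, which encodes a ligand that triggers apoptosis through TRAIL receptors, had signals of 14.2 and 58.5 in its brightest probe set (1439680_at). The untreated signal was under the floor, which gives at least 2.87-fold. Its other probe sets had signals of 4.3 and 49.5 (1459913_at, at least 2.43-fold) and of 1.8 and 30.4 (1420412_at, at least 1.49-fold). All 3 were under the floor without IFNg and above it with IFNg.

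Casp8, the initiator caspase that death receptors activate, had signals of 172.0 and 243.3 (1424552_at). The log2 ratio was 0.50 (1.41-fold), close to the spread between probe sets of a gene. Both arrays were well above the floor for this gene.

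The necroptosis kinase gene and its substrate gene differed in direction. Ripk3 had signals of 346.4 untreated and 258.6 with IFNg (1448449_at), a log2 ratio of -0.42, which lies within the spread between probe sets. Mlkl, the pore-forming effector that RIPK3 phosphorylates, had signals of 53.9 and 614.0 (1429570_at). It was 11.4-fold higher (log2 ratio 3.51), and ranked 44 by log2 ratio among the 12743 genes. With the floor at the 75th percentile its fold became at least 7.09.

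All 4 inflammasome and pyroptosis genes had a brighter IFNg array. Pycard, the adaptor of most inflammasomes, had signals of 146.3 and 915.5 in its brightest probe set (1417346_at), 6.26-fold higher (log2 ratio 2.65). Its other probe sets, with signals of 3.3 and 5.8 (1417347_at) and of 2.1 and 14.7 (1446926_at), were under the floor on both arrays and give no ratio. The Pycard fold therefore rests on 1 of 3 probe sets.

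Casp4, the caspase that responds to cytosolic lipopolysaccharide, had signals of 31.9 and 360.8 (1449591_at). It was 11.3-fold higher (log2 ratio 3.50) and stood next to Mlkl in rank, at place 45 of 12743. How far probe sets of the related genes Casp1, Casp4 and Casp12 detect each other was not tested. The untreated Casp4 signal was not far above the floor, and the fold became at least 4.17 with the floor at the 75th percentile. Casp1, the caspase that matures interleukin-1 beta and interleukin-18, was dim on both arrays, with signals of 4.0 and 28.8 (1449265_at). The bound was at least 1.41-fold, and when the floor was the 25th percentile it was at least 4.96-fold, so for Casp1 the floor sets which side of 2-fold it falls on. Gsdmd, which encodes the pore-forming substrate of both caspases, had signals of 178.7 and 451.5 (1428767_at), 2.53-fold higher (log2 ratio 1.34).

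In order of log2 ratio, Mlkl and Casp4 were 0.01 apart and Fas and Pycard 0.15 apart, both gaps smaller than the spread of 0.44 between probe sets of a gene. The gap from Casp4 to Fas was 0.71 and that from Pycard to Gsdmd was 1.31, both larger than that spread. A gap is a difference between 2 values, so its own spread is larger than 0.44. That SD also holds no variation between cultures or arrays, so the order of these genes was not tested. With the floor at the 75th percentile the order changed, since Casp4 and Fas then had only bounds below the Pycard value. Fas ranked 70 and Pycard 79 among 12743 genes, Gsdmd 581, Casp8 2630 and Ripk3 9087. Tnfsf10 and Casp1 have only bounds, so their places are set by the floor and are not given. Over probe sets, 7 of the 11 above the floor on 1 or both arrays were at least 2-fold higher and none was 2-fold lower, against 9.36% and 4.69% of 22273 probe sets naming 1 gene.

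**Figure D2:**
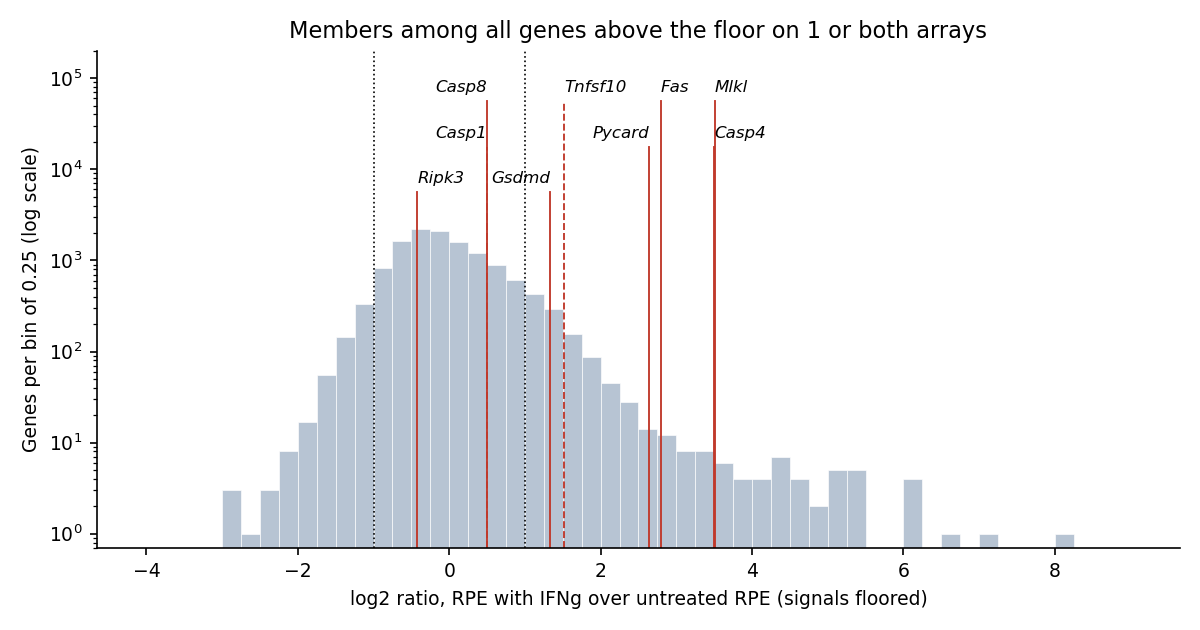
Histogram of log2 ratios (IFNg over untreated, floored signals) of the 12743 genes above the floor, in bins of 0.25 with a log count axis; red lines mark the 9 genes, dashed where the ratio is a bound, and dotted lines mark 2-fold. Mlkl, Casp4, Fas and Pycard lie in the thin right tail, Tnfsf10 and Gsdmd just past 2-fold, and the Casp8 and Casp1 lines coincide at 0.50.

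The start regions of the most induced genes are given because IFNg acts on promoters through GAS elements and through IRF factors. The windows are the 250 bases before the annotated start, from RefSeq on build GRCm38.p6, written 5′ to 3′ on the gene's strand. Capitals mark matches to the GAS letters TTCNNNGAA or to the IRF core letters AANNGAAA, on either strand.
Fas, chr19:34290409-34290658, plus strand: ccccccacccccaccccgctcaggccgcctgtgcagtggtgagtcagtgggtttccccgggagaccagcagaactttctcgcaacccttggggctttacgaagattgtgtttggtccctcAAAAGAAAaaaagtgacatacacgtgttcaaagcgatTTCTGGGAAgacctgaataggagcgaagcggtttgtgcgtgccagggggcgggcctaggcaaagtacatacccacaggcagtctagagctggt
Tnfsf10, chr3:27316827-27317076, plus strand: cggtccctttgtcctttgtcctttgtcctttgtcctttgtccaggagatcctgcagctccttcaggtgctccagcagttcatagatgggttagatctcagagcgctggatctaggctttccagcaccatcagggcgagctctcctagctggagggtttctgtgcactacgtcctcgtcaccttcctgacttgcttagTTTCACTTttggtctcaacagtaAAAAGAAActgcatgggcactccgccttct
Mlkl, chr8:111338206-111338455, minus strand: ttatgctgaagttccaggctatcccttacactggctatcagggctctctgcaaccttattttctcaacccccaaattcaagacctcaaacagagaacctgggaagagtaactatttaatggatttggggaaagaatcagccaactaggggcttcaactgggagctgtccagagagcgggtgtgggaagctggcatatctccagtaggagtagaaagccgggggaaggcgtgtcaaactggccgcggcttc
Pycard, chr7:127993868-127994117, minus strand: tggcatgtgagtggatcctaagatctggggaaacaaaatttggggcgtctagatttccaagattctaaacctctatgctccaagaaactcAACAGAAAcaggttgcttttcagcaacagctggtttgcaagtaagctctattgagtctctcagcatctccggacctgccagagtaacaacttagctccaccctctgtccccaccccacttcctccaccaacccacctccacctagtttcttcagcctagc
Casp4, chr9:5308610-5308859, plus strand: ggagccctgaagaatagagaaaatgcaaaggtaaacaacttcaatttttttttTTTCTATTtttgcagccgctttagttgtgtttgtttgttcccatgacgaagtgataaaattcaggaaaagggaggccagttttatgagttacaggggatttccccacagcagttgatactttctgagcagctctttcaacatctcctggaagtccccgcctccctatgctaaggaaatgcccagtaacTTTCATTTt

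A window was found for 9 of the 10 genes, 11 windows in all, and Gsdmd had no entry. Fas had a GAS match (TTCTGGGAA, from 93 to 85 bases before the start), and so did Ripk1, with 2 matches in 1 of its windows, which has no signal to set beside it. Of 27025 genes with a window, 8.13% held a GAS match. Of the 5 genes at least 2-fold higher with a window, 1 held a GAS match and 4 (Fas, Tnfsf10, Pycard and Casp4) an IRF core match, and of the 3 within 2-fold, none held a GAS match and Casp8 held an IRF core. The IRF core letters stood in 23.9% of the 27025 genes. The longer core of the interferon-stimulated response element (GAAA, any 2 bases, GAAA), which contains the IRF core, matched none of the 11 windows and 3.46% of all genes. The Mlkl window held no match, and Mlkl had the highest log2 ratio of the 9 genes. The overlapping Casp4 windows share most of their bases. A match describes letters in this window and was not tested as a binding site.

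The rest of the pathway was read from 7 lists with 116 other genes, of which 102 had a probe set and 82 were above the floor. Of the 82, 20 were at least 2-fold higher (against 8.82% of all genes), 3 were at least 2-fold lower (against 4.48%) and 59 lay between, with a median log2 ratio of 0.05. The same shares of 8.82% and 4.48% apply beside the counts of each list below.

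In the list of other death ligands and receptors, 9 of 15 genes were above the floor, 1 was at least 2-fold higher and 3 were at least 2-fold lower, with a median log2 ratio of -0.78. The higher one was Eda2r, a receptor of the TNF receptor family, with signals of 11.6 and 59.3 (at least 2.91-fold). The lower ones were Tnfrsf12a, the TWEAK receptor, with 1750 and 795.3 (2.20-fold lower), and the TRAIL decoy receptors Tnfrsf23 (90.8 and 41.2, 2.20-fold lower) and Tnfrsf22 (121.9 and 57.7, 2.11-fold lower). Another Tnfrsf22 probe set had 29.1 and 30.0, and another of Tnfrsf12a had 1418.2 and 780.7 (log2 ratio -0.86). Tnfrsf1b, within 2-fold by its brightest probe set (log2 ratio -0.79), had 100.9 and 41.7 in its other (2.42-fold lower). With the floor at the 75th percentile the decoy receptor values became bounds within 2-fold, and with a pseudocount of 16 both had log2 ratios of -0.90. Averaged over its probe sets, Tnfrsf22 was at -0.47, and Tnfrsf12a was at -0.99 after the loess curve. Tnfrsf22 and Tnfrsf23 are close paralogs, so which of them a probe set measures is uncertain.

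The partners of the induced receptor and ligand lay elsewhere. Fasl, the ligand of Fas, was at the floor on both arrays in both of its probe sets, with signals of 1.8 and 2.4 and of 1.6 and 20.0. Tnfrsf10b, the mouse TRAIL death receptor, had 57.6 and 35.6 (log2 ratio -0.69) in one probe set and 11.0 and 25 in another, under the floor without IFNg. Tnf had 37.6 and 21.9 (log2 ratio -0.78), while its receptor gene Tnfrsf1a was bright on both arrays at 1544.4 and 1447.8.

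The list of adaptors, ubiquitin enzymes and kinases of death complexes had a median log2 ratio of 0.19. With IFNg, 10 of its 25 genes passed 2-fold upward and none downward. Those with the highest folds were the linear ubiquitin ligase subunit Rnf31 (30.9 and 130.6, 4.23-fold), the deubiquitinase Cyld (53.8 and 182.5, 3.39-fold), the caspase-8 inhibitor Cflar (81.1 and 247.6, 3.05-fold) and the ubiquitin ligase Peli1 (38.2 and 115.1, 3.01-fold). The others were Tab3 (2.99-fold, from 20.7 close to the floor) and Tab2 (2.02-fold), adaptors of the kinase TAK1, the inhibitor-of-apoptosis genes Birc2 (2.34-fold), Birc3 (2.09-fold) and Xiap (2.04-fold), and the ubiquitin-editing enzyme Tnfaip3 (2.16-fold). Probe sets were not uniform: further ones of Cflar had log2 ratios of 0.76 and 0.41, and further ones of Xiap 0.56 and -0.53. Tbk1, within 2-fold by its brightest probe set (log2 ratio 0.87), had 41.8 and 155.0 in its other (1.89). With the floor at the 75th percentile, the Birc2, Peli1 and Rnf31 folds became bounds under 2-fold. Other folds fell within 2-fold when averaged over the probe sets of a gene above the floor on 1 or both arrays. These were Tnfaip3 (1.86-fold), Birc3 (1.77-fold), Cflar (1.64-fold), Peli1 (1.54-fold) and Xiap (1.15-fold). The averages of Birc3, Cflar, Peli1 and Xiap take in dim probe sets that give only a bound. With both arrays scaled to their 75th percentile, Birc3 (1.98-fold), Xiap (1.93-fold) and Tab2 (1.91-fold) also fell within 2-fold. Without probe sets of shared sequence, Birc3 was at least 1.49-fold higher. With a pseudocount of 16, Tab2 was at 1.98-fold and Xiap at 1.95-fold. Fadd, the adaptor between Fas and caspase-8, had 85.2 and 59.2 (log2 ratio -0.53).

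Among 11 necroptosis triggers and regulators, 5 were at least 2-fold higher and none lower (median log2 ratio 0.58). Zbp1, a nucleic acid sensor that engages RIPK3, had signals of 241.2 and 1512.1 (6.27-fold higher), and its other probe set 64.2 and 675.4 (10.5-fold). Tlr3, a sensor of double-stranded RNA, had 40.9 and 272.0 (6.65-fold), and the RNA-activated kinase gene Eif2ak2 had 40.8 and 186.6 (4.57-fold). Dnm1l, the mitochondrial fission GTPase, was 2.62-fold higher. The chaperone Hsp90aa1 was 2.30-fold higher, with 2.55-fold and 2.77-fold in its other bright probe sets. It was 1.92-fold higher averaged over its probe sets above the floor on 1 or both arrays. That average takes in a probe set near the floor, with 24.6 and 7.0. With the floor at the 75th percentile Tlr3 became at least 3.14-fold and Eif2ak2 at least 2.16-fold.

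Inflammasome sensors were mostly dim: 10 of 16 sensor and regulator genes were at the floor on both arrays. Nlrp3 had signals of 19.2 and 19.4 and the DNA sensor Aim2 1.6 and 7.6. Nek7, a kinase that binds NLRP3, had 251.1 and 545.1 (2.17-fold) and alone passed 2-fold by its brightest probe set among the 6 above the floor. Averaged over its probe sets Nek7 was at 1.62-fold. That average takes in 1.92-fold in another bright probe set and a probe set near the floor, with 14.4 and 21.0. A dimmer probe set of Dpp8, a protease that restrains inflammasome sensors, had 35.3 and 72.9 (2.06-fold). Of 9 substrates, gasdermins and rupture genes above the floor, 3 were at least 2-fold higher: Casp12 (132.8 and 706.2, 5.32-fold, with 8.69-fold in its other probe set), the protease inhibitor Serpinb1a (105.4 and 298.3, 2.83-fold) and the caspase-1 substrate Il18 (70.8 and 156.3, 2.21-fold). Il18 was at least 1.80-fold higher with the floor at the 75th percentile and 1.98-fold with a pseudocount of 16. Il1b, the other main caspase-1 substrate, had 34.6 and 27.3. Gsdme, a gasdermin cut by apoptotic caspases, had 57.3 and 69.5. Ninj1, which ruptures the membrane in lytic death, had 833.4 and 1216.6 (log2 ratio 0.55). Its other probe sets were at 0.43, 0.66 and, in the dimmest (39.5 and 21.7), -0.86.

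None of the 11 genes of apoptotic caspases and the mitochondrial arm and none of the 11 measured genes of ESCRT membrane repair passed 2-fold by its brightest probe set, with medians of -0.10 and -0.14; another probe set of the ESCRT partner Pdcd6ip was at -1.14. Casp6 had 301.1 and 289.0 and Casp9 71.0 and 63.8. Vps4b, an ATPase of the ESCRT machinery that mends plasma membrane, had 246.4 and 465.9 (log2 ratio 0.92). The related ATPase gene Vps4a had 326.0 and 272.6 (log2 ratio -0.26).

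**Figure D3:**
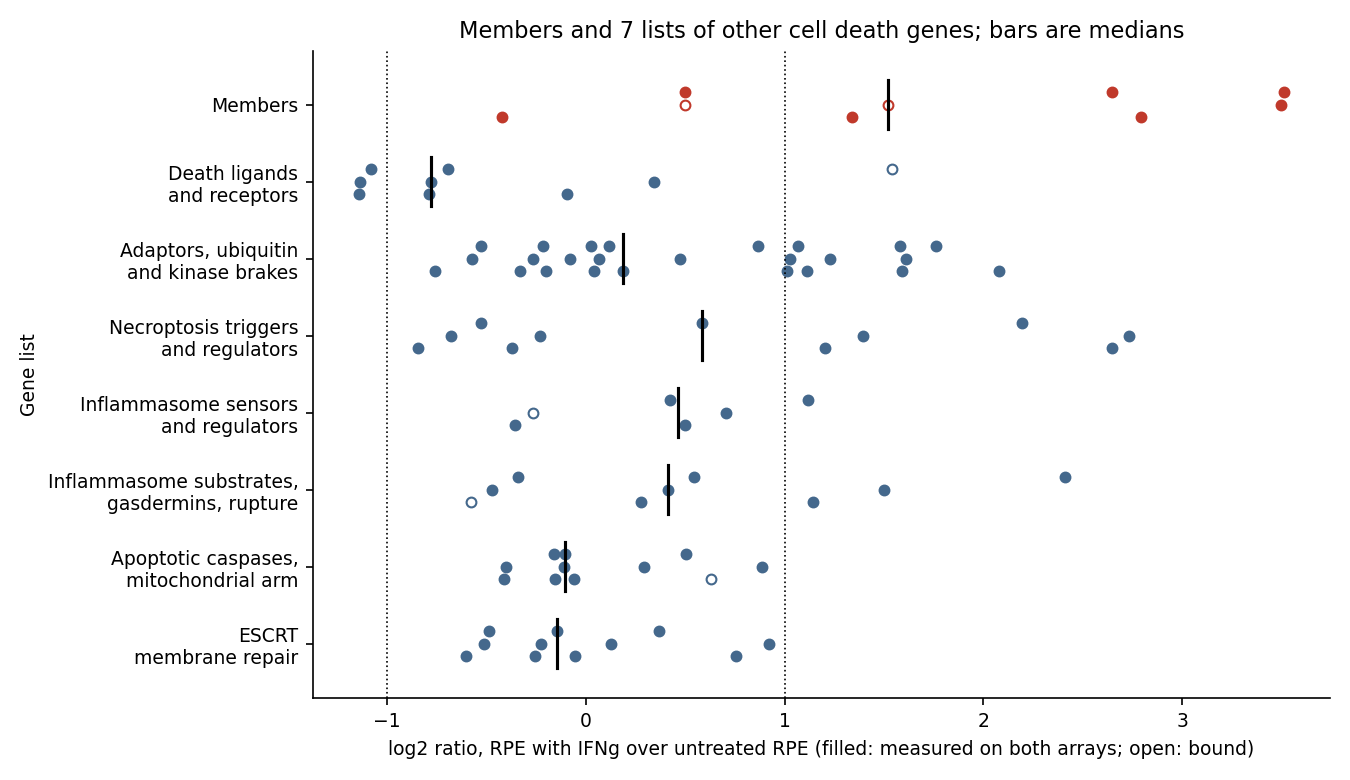
Log2 ratios (IFNg over untreated) of the 9 genes (red) and of the 82 other genes in 7 lists (blue), each point a gene, filled where both arrays were above the floor and open where the ratio is a bound; black bars are list medians and dotted lines mark 2-fold. The 9 genes have their median at 1.52 (the Tnfsf10 bound), the other death ligands and receptors at -0.78, and no apoptotic caspase or ESCRT gene passes a dotted line.

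Several of these genes are also active in myeloid cells, so leukocyte markers were read on the same arrays. Of 14 macrophage and microglia markers, 12 were above the floor on 1 or both arrays. By the brightest probe sets, none of the 12 was 2-fold higher with IFNg, against 8.82% of all genes. At least 2-fold lower were 3 of the 12 (Csf1r, Fcer1g and Laptm5), against 4.48%. The summed signal of the 14 was 1442.8 untreated and 1004.3 with IFNg. The complement markers C1qa (1.94-fold), C1qb (1.49-fold) and C1qc (1.42-fold) were brighter with IFNg, and another C1qb probe set was 2.20-fold higher. The other Csf1r probe sets were 1.22-fold and 1.47-fold lower, and the other Laptm5 ones above the floor 1.14-fold and 1.46-fold lower. The brightest macrophage markers were Lyz2 (660.8 and 486.5), Csf1r (202.8 and 77.5), Cd68 (139.6 and 87.6) and Cd14 (117.3 and 89.8). Itgam and Aif1 were at the floor on both arrays, and the pan-leukocyte gene Ptprc had 20.8 and 7.0. Among the 9 lymphocyte and NK cell markers, 8 were at the floor on both. Of 15 RPE markers, 11 were above the floor on 1 or both arrays. Of the 11, 4 were at least 2-fold lower with IFNg (Ttr, Tyrp1, Rdh5 and Rlbp1), against 4.48% of all genes. None was higher by that much, against 8.82%. Otx2 had 410.9 and 388.5 and Krt18 1390.4 and 2445.9, while Rpe65, Best1, Dct and Stra6 were at the floor on both arrays. Fibroblast genes were bright, with a summed signal of 55919 and 51674 over 7 genes. None of the 7 passed 2-fold by its brightest probe set, against 8.82% of all genes higher and 4.48% lower. A dimmer probe set of Acta2 had 89.3 and 33.6 (2.66-fold lower). In cultures measured as a whole, fewer cells of a type and less RNA per cell cannot be told apart, and the part of cell composition in these values was not tested.

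The values of 9 alternative settings were compared for each gene. Mlkl ranged from at least 7.09-fold to 12.0-fold, Casp4 from at least 4.17-fold to 11.5-fold and Fas from at least 3.04-fold to 7.03-fold. These lower ends are bounds set by the floor at the 75th percentile, not spread of a measured fold. Pycard ranged from 5.74-fold to 6.74-fold and Gsdmd from 2.39-fold to 2.70-fold. Averaging over probe sets left out those under the floor on both arrays. The Pycard average is therefore the value of its brightest probe set alone. Tnfsf10 and Casp1 had no value with the floor at the 75th percentile. Tnfsf10 ranged from 2.18-fold, an average of bounds, to 4.12-fold with the floor at the 25th percentile. Ripk3 stayed between log2 ratios of -0.50 and -0.32 and Casp8 between 0.42 and 0.58. Casp1 ranged from 0.45 to 2.31, both bounds, and passed 2-fold with the lower floor and with a pseudocount of 16 (1.16).

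**Figure D4:**
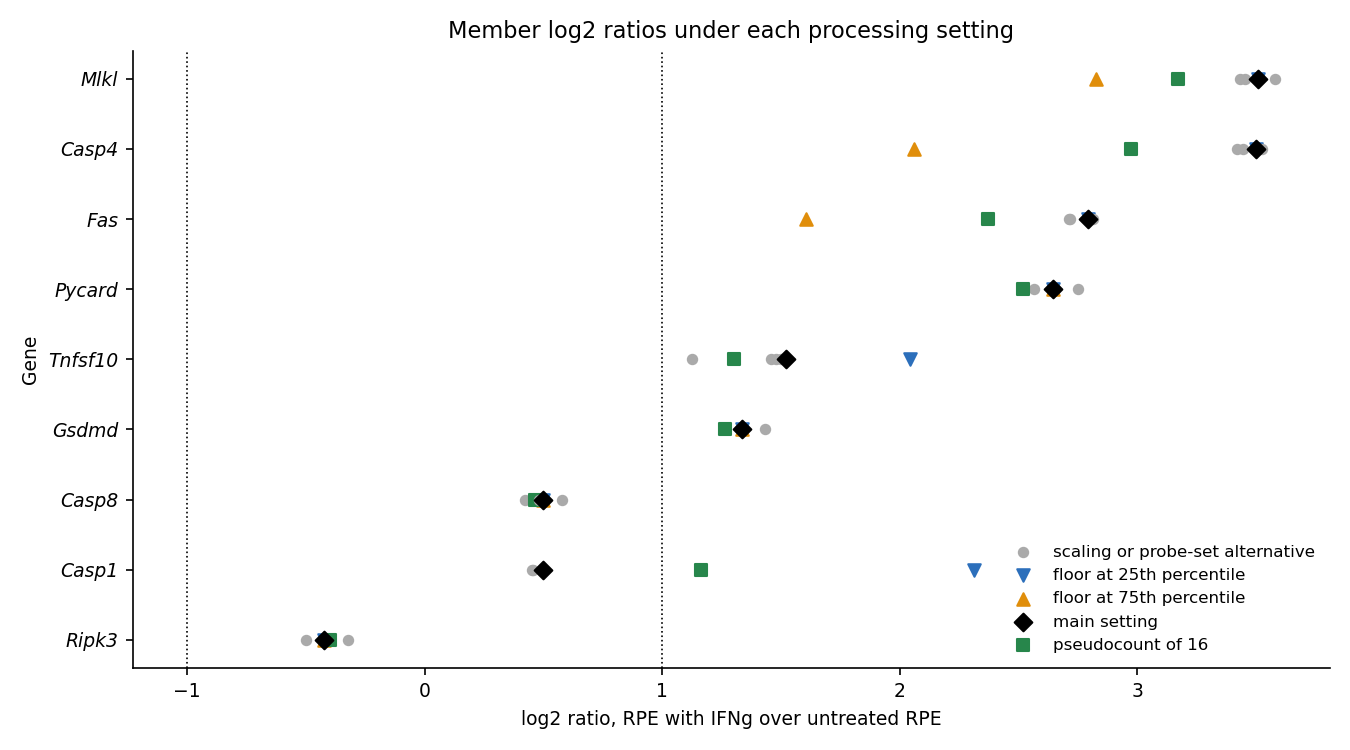
Log2 ratios (IFNg over untreated) of the 9 genes under the main setting (diamonds), other floors (triangles), a pseudocount of 16 (squares) and the scaling and probe-set alternatives (grey circles); dotted lines mark 2-fold. Mlkl, Casp4, Fas, Pycard and Gsdmd stay right of 1 in each setting drawn, Casp8 and Ripk3 stay within 2-fold, and Casp1 falls on either side.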

How the data were processed

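Total RNA from each culture was amplified and biotin-labelled for an Affymetrix array, per the labels' protocols. The authors deposited linear signal intensity for 45101 probe sets (0.1 to 14896), with a 2% trimmed mean of 100.0 on each array. No software, background correction or detection call is named in those sources.

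After 64 control probe sets were left out, the arrays were brought to 1 shared trimmed mean, lower signals were raised to the pooled median and log2 was taken. Above the floor were 49.5% of untreated and 50.4% of IFNg probe sets. Genes were named only from the 34945 probe sets to which the platform annotation, which can be old, gives 1 gene; 932 name several and 9160 none. No genome build is named for the signals.

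No test was possible with 1 array per group. All genes of the list were named, and of the pathway lists every gene past 2-fold plus a fixed set of ligands, receptors, sensors and substrates; 1 gene of that set is not reported here. The list and the pathway lists were chosen with earlier results of these data known. The steps were tested on simulated data in which only bright probe sets were changed and each gene had 1 probe set. Changes from a dim untreated signal and the choice of the brightest probe set were therefore not covered. Python 3.11.15, numpy 2.4.6, pandas 2.3.3, statsmodels 0.14.6 and matplotlib 3.10.9 were used. Alternatives covered scaling, floor, pseudocount, probe-set choice and threshold.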

Additional observations from a re-analysis of the deposited data

How the results depend on the processing

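Depth is set by signal over background, which is unknown here, so dim signals carry the most doubt. The count of 6 genes at least 2-fold higher, of 9, was 4 to 7 over the 11 alternatives, and the count of 0 lower was 0 in each. The median log2 ratio of 1.52 rose to 2.31 with the floor at the pooled 25th percentile and otherwise lay between 1.30 and 1.60. Of the pathway genes, 20 were higher and 3 lower. The higher count was 27 with the floor at the 25th percentile, 26 at a 1.5-fold threshold, 14 with the floor at the 75th percentile or with probe sets averaged, and 17 with 75th percentile scaling or a pseudocount. The lower count was 6 with the floor at the 25th percentile, 1 at the 75th percentile, 10 at a 1.5-fold threshold and 0 at 3-fold, where the higher count was 8. Those floors and thresholds change how many genes can pass by construction. Tnfrsf22 turned from a log2 ratio of -1.08 to 0.044 without probe sets whose IDs mark shared sequence, which leaves it another probe set. Of 341 values of single genes, 313 moved by less than the SD between probe sets of a gene, and of 79 values of the 9 genes, 72 did. Many of these values could not move by construction. The shared trimmed mean used factors of 1.00008 and 0.999924, so leaving it out changed almost nothing. Of the 9 genes, 7 have 1 probe set, so averaging left them as they were. None of the 9 has a probe set whose ID marks shared sequence. These counts are therefore no measure of stability. Over all genes, 1124 were higher and 571 lower, against 2258 and 2059 with the floor at the 25th percentile, 574 and 163 at the 75th, 2287 and 2381 at 1.5-fold and 336 and 59 at 3-fold. No scaling moved the median of all genes by over 0.1. No paired analysis was possible because each group has 1 array.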

Other observations

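Casp1, Casp4 and Casp12 are neighbours on chromosome 9 in the reference gene table of GRCm38.p6, in this order, with Gria4 before and Pdgfd after them among protein-coding genes. Their log2 ratios with IFNg were at least 0.50 for Casp1, 3.50 for Casp4 and 2.41 for Casp12, whose other probe set was at 3.12. These 3 genes encode related proteins, and how far a probe set of one also detects another was not tested. The interleukin-1 receptor antagonist gene Il1rn had 2626.8 untreated and 1890.6 with IFNg in its brightest probe set (log2 ratio -0.47), and -1.29 and -1.06 in its other probe sets, which are 2-fold lower. Ikbkg, the regulatory subunit of the IKK complex, had 115.1 and 120.7 (log2 ratio 0.07) in the probe set chosen as brightest over both arrays. Of its 5 other probe sets, 2 were at least 2-fold lower (-1.01 and -1.10). The first of these, with 160.0 and 79.2, has the highest signal of all on the untreated array, so the choice of probe set decides which side of 2-fold Ikbkg falls on.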
